A study of Homo sapiens with 12 samples.

Results

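The invasive line MCFCA1 was set against its non-tumorigenic ancestor MCF10A over all genes of a deposited count table. The comparison uses the 3 libraries of CA1 (MCFCA1, named invasive cancer in the series design) and the 3 libraries of A10 (MCF10A, named non-tumorigenic), which are 6 of the 12 libraries of the series. The 6 libraries of the intermediate lines MCFNeoT and MCFT1 stayed out of the fit. All genes of the table are members, and 13762 of its 29744 rows had enough counts to be tested. Both lines are human breast epithelial lines that the design counts among triple-negative lines, and the labels name no treatment. The study prepared DNA, RNA and peptides from each culture to judge a joint preparation method. Its RNA was treated with DNase I, and 1 µg per sample went into an NEBNext Ultra library kit. Replicates are labelled biological, with no word on whether each was a separate culture, so p-values measure only the spread between these samples, which may be technical.

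As background, MCF10A is an immortal mammary line with mostly basal features. Its derivatives were made by adding a mutant HRAS and by growing the cells as xenografts, and CA1 lines came from the carcinomas that formed, so each line is a cell population with its own history rather than a tumour. HRAS is a small GTPase that passes growth factor signals from receptors such as EGFR to the RAF, MEK and ERK kinases, whose output includes feedback phosphatases and EGFR ligands. Mammary epithelium has an inner luminal layer, marked by the simple keratins KRT8 and KRT18, and an outer basal layer, marked by KRT5, KRT14 and the transcription factor TP63.

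The CA1 libraries held 18465144 to 25294008 estimated counts and the A10 libraries 22274719 to 35730423. Levels below are CPM, counts per 1000000 counts of a library after TMM scaling, which corrects library sizes for composition. CPM are not scaled to gene length, so they compare libraries and not genes. They are given per library or as mean ± SD (n = 3 libraries per line). Between 2 libraries, the correlation of log2 CPM over tested genes (Pearson's r, a description, since genes are not independent) ran from 0.988 to 0.990 over the 6 pairs of replicates and from 0.805 to 0.811 over the 9 pairs of CA1 with A10 libraries. The biological coefficient of variation was 6.23% within CA1 and 8.45% within A10. Cytoplasmic rRNA rows took 1.12% ± 0.212 of counts in CA1 and 1.99% ± 0.132 in A10, and the mitochondrial rRNA rows 0.336% ± 0.0361 in CA1 and 0.158% ± 0.00621 in A10. For each of these shares an exact two-sided permutation test gave p = 0.1, the smallest that the 20 assignments of 6 libraries allow. Without the cytoplasmic rRNA rows the counts of changed genes below moved by no more than 1.

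HRAS (chromosome 11, 532242 to 535576), the gene added as a mutant when the derived lines were made, stood at 297, 311 and 318 CPM in CA1, against 63.4, 63.3 and 71.5 CPM in A10. No CA1 library overlapped an A10 library, a lack of overlap found in 78.9% of all tested genes. The fitted log2 fold change of HRAS was 2.23 ± 0.0628 (SE). Its adjusted p was 9e-22 by edgeR's quasi-likelihood test with Benjamini-Hochberg adjustment over all genes. These counts do not separate mutant from normal transcripts. Its relative NRAS had 68.5 ± 2.01 CPM in CA1 and 71.7 ± 6.40 CPM in A10, a difference that was not called.

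Both lines carried the epithelial markers of their label. Of 8 basal mammary markers 6 fell and 2 rose (ITGB4 and TRIM29), and of 10 luminal markers 8 rose and MUC1 fell. At least 2-fold were 3 of the basal falls and 7 of the luminal rises. Over all tested genes, 37.4% were called higher in CA1 and 39.8% lower. The summed level of the basal markers was 11440 to 11840 CPM in CA1 libraries and 7751 to 8579 CPM in A10 libraries, and that of the luminal markers 7799 to 8441 CPM in CA1 and 1094 to 1190 CPM in A10. ITGB4 carried the basal sum, and the other 7 basal markers summed to 2966 to 3063 CPM in CA1 libraries and 6794 to 7375 CPM in A10 libraries. No marker of either list was at 0. The leukocyte genes PTPRC and CD3E had no count in either line. ESR1, the oestrogen receptor, had 1.23 ± 0.289 CPM in CA1 and 0.717 ± 0.248 CPM in A10, a difference that was not called, and PGR, the progesterone receptor, had no count in either line. ERBB2, a receptor of the EGFR family, had 206 ± 10.7 CPM in CA1 and 79.7 ± 3.92 CPM in A10.

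Of 13762 genes tested, 10623 were called at an adjusted p under 0.05, or 77.2%. CA1 was higher than A10 in 5151 of them (37.4% of tested genes) and lower in 5472 (39.8%). Below, rose and fell are said only of called genes, with fold changes as fitted. A call was the usual state of a gene here, and list counts below are read against these shares. Among called genes, 4796 (34.8% of tested genes) differed at least 2-fold, 2270 being higher in CA1 (16.5%) and 2526 lower (18.4%). Differences of at least 10-fold were found in 417 genes higher and 702 lower in CA1, and of at least 100-fold in 73 higher and 141 lower, with genes at 0 taken at their bound. The median log2 fold change of all tested genes was -0.03, and 10865 genes (78.9%) had no overlap between the libraries of CA1 and A10. Lack of overlap in single genes below is read against this share.

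**Figure D1:**
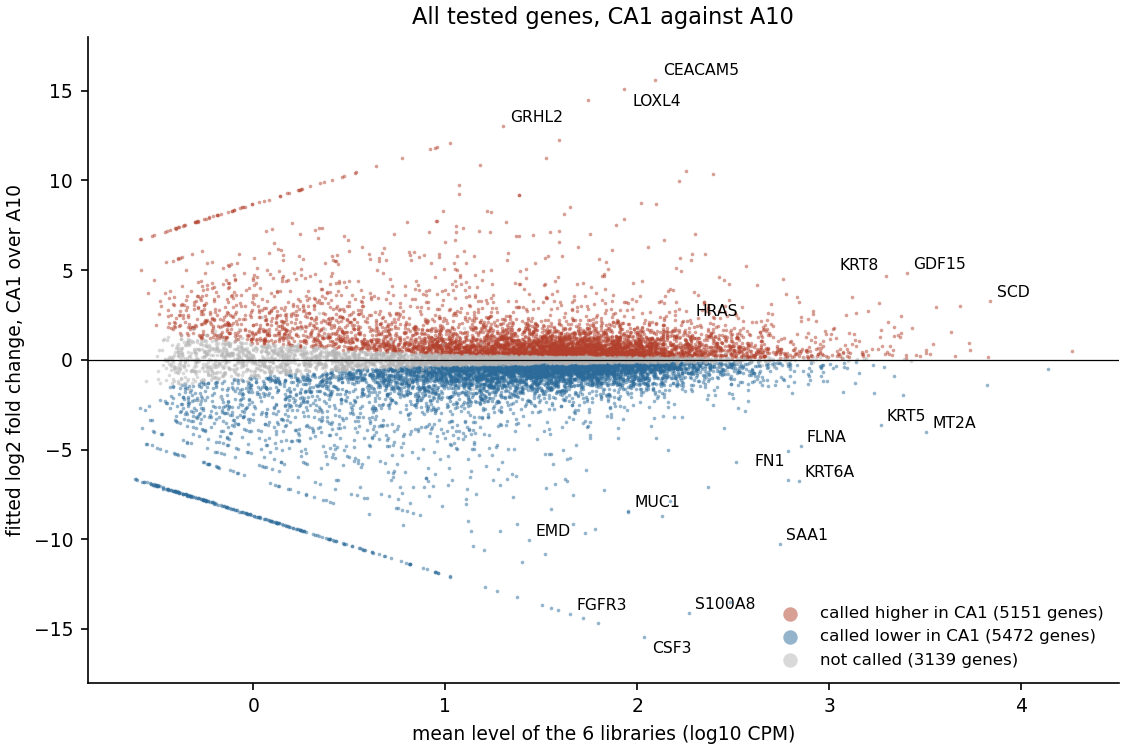
Fitted log2 fold change of CA1 over A10 against the mean level of the 6 libraries (log10 CPM) for 13762 tested genes, one point per gene. Called genes spread over the whole range of levels, 5151 above 0 and 5472 below, and the straight lines of points at the upper and lower left are genes with 0 counts in one line.

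Genes of epithelial junctions and identity were mostly higher in CA1. Of 31 tested members, 22 rose and 4 fell, with a median log2 fold change of 1.02. CLDN4, a tight junction claudin, had 746, 829 and 805 CPM in CA1, against 40.7, 49.7 and 44.8 CPM in A10, and EPCAM, an epithelial adhesion molecule, 392, 404 and 416 CPM in CA1, against 43.8, 41.6 and 42.6 CPM in A10. RAB25, a trafficking GTPase of epithelia, had 143, 134 and 131 CPM in CA1, against 4.05, 4.01 and 4.18 CPM in A10. The libraries of CA1 lay above those of A10 in all 3 genes, by 17.7-fold, 9.46-fold and 33.3-fold. The rise of CLDN4 had a log2 fold change of 4.14 ± 0.0710 (SE) and edgeR adjusted p of 1.4e-26. ESRP1, a splicing factor of epithelial cells, rose 7.38-fold to 411 ± 4.81 CPM, CLDN7 3.32-fold to 357 ± 19.9 CPM and the protease inhibitor gene SPINT1 3.32-fold to 730.2 ± 29.3 CPM. CDH1 (E-cadherin), the central adherens junction gene, was 369.8 ± 14.0 CPM in CA1 and 320.2 ± 15.9 CPM in A10, a called difference of only 1.16-fold. Its call was lost in a fit to all 12 libraries (edgeR adjusted p = 0.057).

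The grainyhead family, transcription factors that maintain epithelial identity, split. GRHL2 had 37.6, 43.7 and 39.2 CPM in CA1, against 0 CPM in every A10 library, at least 1207-fold higher when the line at 0 is set to 3 counts over its 3 libraries. GRHL1 also rose, 4.08-fold. GRHL3, in contrast, had 1.27, 1.72 and 1.11 CPM in CA1, against 39.2, 44.8 and 48.0 CPM in A10, and fell 31.9-fold. Thus GRHL2 and GRHL3 moved in opposite directions.

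Keratins showed an exchange of members rather than a common direction. KRT8 (chromosome 12, 52897191 to 52949860) had 3555, 3876 and 3913 CPM in CA1, against 136, 157 and 159 CPM in A10, a 25.1-fold rise with an edgeR adjusted p of 3.57e-28. Its partner KRT18 had 3139.8, 3217 and 3423 CPM in CA1, against 341, 360.5 and 374 CPM in A10. Every CA1 library lay above every A10 library for both simple keratins. KRT7, another simple keratin, rose 2.88-fold to 6398 ± 215 CPM.

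Among basal keratins, KRT5 had 263, 295 and 272 CPM in CA1, against 3257, 3506 and 3518 CPM in A10, and its partner KRT14 3.36, 3.21 and 3.64 CPM in CA1, against 439, 479.7 and 466 CPM in A10. They fell 12.4-fold and 135-fold. KRT6A, a keratin of stressed and activated epithelium, had 12.3, 12.4 and 13.2 CPM in CA1, against 1301, 1427 and 1384 CPM in A10, while its close relative KRT6B had 704, 715 and 745 CPM in CA1, against 17.3, 18.3 and 21.4 CPM in A10. The pair thus moved in opposite directions, with -6.76 and 5.25 on the log2 scale, although their similar sequences can share reads. KRT15, a basal keratin, rose 7.78-fold to 6404 ± 195 CPM and was one of the 10 genes that gained the most CPM. In the whole basal list 7 of 15 rose and 8 fell, median -0.33. TP63 fell 3.93-fold to 27.7 ± 2.20 CPM, SOX15 6.95-fold and SNAI2, a basal transcription repressor, 4.34-fold. NGFR, a neurotrophin receptor of basal cells, rose 10.3-fold, and the transcription factor gene SOX9 10.1-fold to 547 ± 6.68 CPM.

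**Figure D2:**
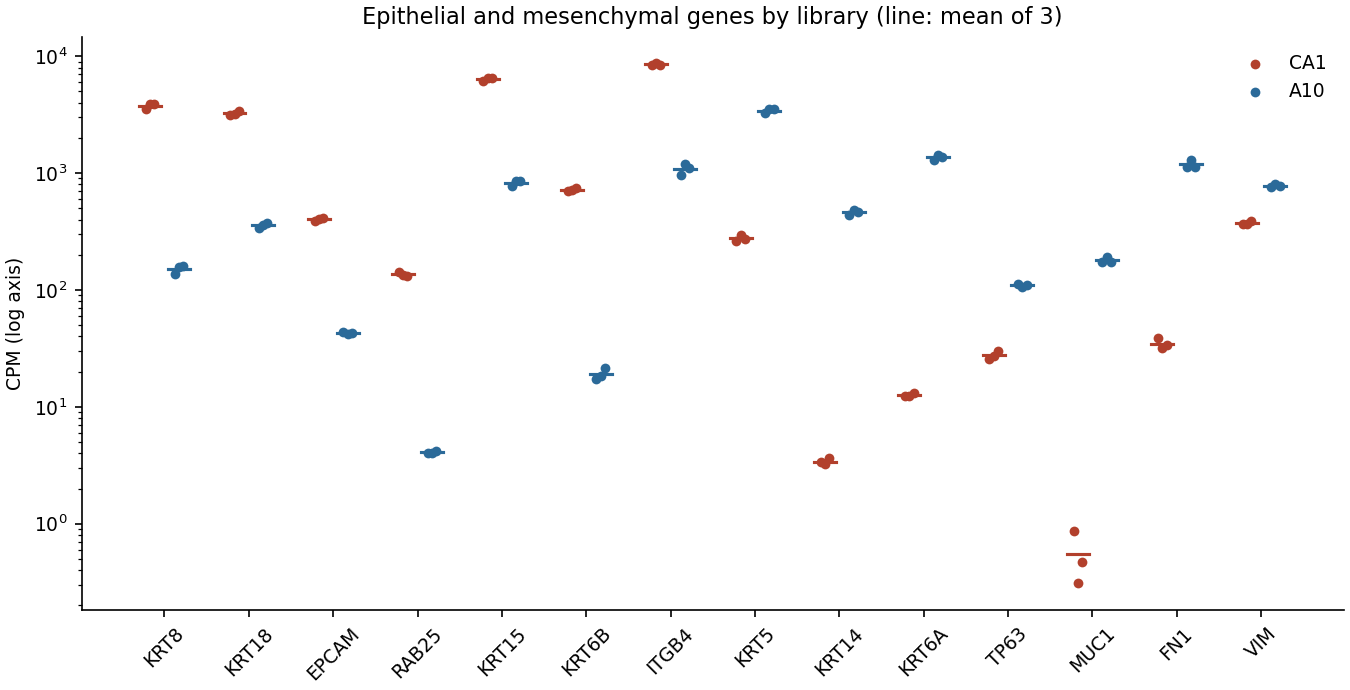
Level in CPM (log axis) of 14 epithelial and mesenchymal genes in each library, CA1 left of A10, with a bar at the mean of 3. The libraries of each line sit close together, with KRT8, KRT18, EPCAM, RAB25, KRT15, KRT6B and ITGB4 higher in CA1 and KRT5, KRT14, KRT6A, TP63, MUC1, FN1 and VIM lower.

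Luminal genes rose in 11 of 16 tested cases and fell in 3, with a median of 1.62. The transcription factor genes GATA3, FOXA1 and ELF3 rose 2.19-fold, 3.65-fold and 3.90-fold, and ERBB3, a receptor of the EGFR family, 6.99-fold. The surface mucin gene MUC1 went the other way, with 0.868, 0.308 and 0.470 CPM in CA1, against 172, 192 and 173 CPM in A10, a 339.8-fold fall. CD24, a surface protein of luminal cells, fell 3.39-fold to 80.7 ± 2.07 CPM. KRT19 rose but stayed at 2.31 ± 0.0503 CPM in CA1 and 0.329 ± 0.186 CPM in A10.

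Genes of the cornified envelope and the kallikrein proteases, which mark squamous differentiation, fell in 16 of 23 tested cases and rose in 7, with a median of -2.85. S100A8 and S100A9 encode the subunits of the calcium-binding protein calprotectin. S100A9 had 11.4, 14.3 and 9.20 CPM in CA1, against 1178, 1152 and 1282 CPM in A10, and S100A8 0, 0 and 0.0428 CPM in CA1, against 392, 314 and 406 CPM in A10. One count in all of CA1 gave S100A8 a CPM ratio of A10 over CA1 of 23805 (95% counting interval 4272 to 940288). The transglutaminase gene TGM1 fell 351-fold to 0.489 ± 0.301 CPM, and 550.2-fold without CA1 replicate 2. KLK7 had 0.174, 0.0880 and 0.257 CPM in CA1, against 124, 118 and 119.5 CPM in A10, while its neighbour KLK5 had 219, 224 and 220.1 CPM in CA1, against 41.9, 41.8 and 42.1 CPM in A10 and KLK6 44.5, 45.05 and 49.2 CPM in CA1, against 0.439, 0.334 and 0.370 CPM in A10. KLK5 and KLK6 therefore rose beside a fall of KLK7 and KLK10. In each of the small proline-rich genes SPRR1B, SPRR2A and SPRR2D CA1 was lower, by 9.66-fold, 7.23-fold and 12.8-fold, whereas SPRR1A was 11.4-fold higher. Genes of this family are similar in sequence, so reads can be shared.

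Of 9 genes of hemidesmosomes and laminin-332, whose products anchor epithelium to its basement membrane, 7 rose, COL17A1 fell and DST was not called, a subset grouped after its values were seen. ITGB4, the integrin chain specific to hemidesmosomes, had 8471, 8781 and 8456 CPM in CA1, against 958, 1204 and 1096 CPM in A10, and LAMB3, a chain of laminin-332, 4100.3, 4332 and 4169 CPM in CA1, against 1137, 1298 and 1217 CPM in A10. Both were among the 10 genes that gained the most CPM, ITGB4 with a log2 fold change of 2.98 ± 0.0650 (SE) and edgeR adjusted p of 1.61e-22. ITGA6, the partner of ITGB4, rose 2.29-fold to 1514 ± 42.1 CPM, and PLEC, which links hemidesmosomes to keratin, 1.496-fold. In the joint desmosome and hemidesmosome list, 11 of 20 tested genes rose and 5 fell, median 0.45, and the desmosomal cadherin genes split: DSC2 rose 2.37-fold and DSG3 fell 1.62-fold. DSP (desmoplakin) and JUP (plakoglobin) were not called, at 475 ± 27.9 CPM in CA1 and 492 ± 53.6 CPM in A10 and 429 ± 20.98 CPM in CA1 and 428 ± 38.2 CPM in A10.

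Laminins, integrins and collagens of other matrices changed in both directions. Of 20 tested laminin and integrin genes 9 rose and 10 fell, and of 20 collagen genes 9 rose and 9 fell. The sign of either median changed when single libraries were left out. LAMA4, a laminin chain of vessel and muscle basement membranes, had 366, 356 and 356 CPM in CA1, against 0.465, 0.0835 and 0.0740 CPM in A10, a 1441-fold rise (4266-fold without A10 replicate 1), whereas LAMA1 fell 19.2-fold. ITGB5 rose 5.82-fold to 862 ± 40.0 CPM, and ITGA5, the fibronectin receptor chain, fell 2.77-fold. ITGA4 had no count in CA1 and 8.29 ± 0.482 CPM in A10, which makes it lower by at least 174-fold. COL9A3 stood at 23.4 ± 3.56 CPM in CA1 against 3 counts in A10, a ratio of 709 (95% counting interval 242 to 3440.4). COL18A1 and COL13A1 rose 5.58-fold and 10.6-fold, and COL4A6 fell 38.7-fold.

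Mesenchymal genes did not rise together in the invasive line. Of 21 tested members 12 fell and 9 rose, with a median of -1.07. FN1 (fibronectin; chromosome 2, 215360865 to 215436068) had 38.5, 31.6 and 34.1 CPM in CA1, against 1134, 1304 and 1117 CPM in A10, a 34.2-fold fall (log2 fold change of -5.10 ± 0.0777 (SE) and edgeR adjusted p of 1.19e-27). VIM (vimentin) had 373 ± 14.3 CPM in CA1 and 780.2 ± 20.3 CPM in A10 and CDH2 (N-cadherin) 11.5 ± 1.03 CPM in CA1 and 27.1 ± 0.790 CPM in A10, both called lower. The repressors of epithelial genes ZEB1, ZEB2 and TWIST2 were lower, ZEB1 at 0.403 ± 0.197 CPM in CA1 and 4.17 ± 0.481 CPM in A10, ZEB2 with 3 counts in all of CA1, and TWIST2 40.0-fold down. The 9 that rose were the matrix genes SPARC, 2.19-fold, TNC, 3.74-fold, LOX, 3.04-fold, and LOXL1, 1.61-fold, with the repressor gene SNAI1, 6.85-fold, CD44, 2.23-fold, AXL, 3.08-fold, FOXC1, 4.12-fold, and MSN, 1.10-fold. The call of MSN was lost without A10 replicate 1 or 3 and without CA1 replicate 1 or 2 (edgeR adjusted p = 0.0802 to 0.132).

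Markers of fibroblasts stood beside these falls. None of 7 tested fibroblast markers rose and 6 fell, with a median of -6.19, or -4.72 with genes at 0 taken at their bound. The summed level of all 11 was 13.9 to 15.9 CPM in CA1 libraries and 282 to 289 CPM in A10 libraries, and COL1A2, COL3A1, DCN, LUM, POSTN and PDGFRA were at 0 in CA1. DCN (decorin) had 0 CPM in every CA1 library, against 70.3, 67.6 and 74.3 CPM in A10, and POSTN (periostin) 0 CPM in every CA1 library, against 67.0, 60.9 and 63.5 CPM in A10, at least 1496-fold and 1359-fold lower. COL1A1, the defining fibroblast collagen, was not called, at 4.12 ± 0.630 CPM in CA1 and 5.21 ± 0.456 CPM in A10. In bulk RNA, fewer cells of a type and less RNA per cell cannot be told apart, and the part of other cell types in any fall was not tested.

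Genes that read out RAS and ERK signalling rose in 17 of 21 tested cases and fell in 3, with a median of 1.65. DUSP4, a nuclear phosphatase of ERK, had 1258, 1268 and 1218 CPM in CA1, against 110.1, 116 and 109 CPM in A10, an 11.2-fold rise (log2 fold change of 3.48 ± 0.0567 (SE) and edgeR adjusted p of 4.51e-27), and DUSP5 rose 5.52-fold. EPHA2, an ephrin receptor, had 1394, 1486 and 1401 CPM in CA1, against 201, 232 and 213 CPM in A10, and PHLDA1, an early growth factor response gene, 2379.6, 2349.8 and 2367 CPM in CA1, against 409, 392 and 383 CPM in A10. Every CA1 library exceeded every A10 library several-fold in these genes. LIF, a cytokine of the IL-6 family, rose 6.48-fold and FOSL1, an AP-1 subunit, 3.19-fold. DUSP6, the cytoplasmic ERK phosphatase, rose 1.92-fold, SPRY2 2.88-fold and SPRY4, both Sprouty inhibitors of the pathway, 1.27-fold. MYC and CCND1 (cyclin D1) fell 1.69-fold and 1.32-fold.

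Upstream of these, regulators and kinases of RAS changed both ways, with 13 of 24 tested genes higher and 8 lower. RASAL1 and RASA1, which switch RAS off, rose 60.9-fold to 41.9 ± 0.578 CPM and 7.40-fold to 410.4 ± 13 CPM. MAP2K1 (MEK1) fell 2.63-fold, and MAPK3 (ERK1) rose 2.79-fold. Of the 17 tested immediate early genes 8 rose and 7 fell. ATF3 rose 18.9-fold and FOS 1.82-fold, while EGR1 fell 1.54-fold and JUN 1.70-fold.

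Most ligands of the EGFR were higher while the receptor itself was not called. EGFR had 141 ± 3.07 CPM in CA1 and 140.4 ± 17.4 CPM in A10. HBEGF, heparin-binding EGF-like growth factor, had 451, 460.4 and 471 CPM in CA1, against 67.7, 70.5 and 68.8 CPM in A10, and EREG (epiregulin) 288, 289 and 288 CPM in CA1, against 29.8, 27.7 and 34.2 CPM in A10. TGFA (transforming growth factor alpha) and AREG (amphiregulin) rose 3.20-fold and 1.47-fold, whereas EPGN (epigen) fell 6.59-fold. In all, 8 of 12 tested genes of the family rose and 1 fell, median 0.59.

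Other receptor tyrosine kinases and their ligands rose in 13 of 24 tested cases and fell in 5. FGFR3 (chromosome 4, 1793293 to 1808867), a fibroblast growth factor receptor, had 0 CPM in every CA1 library, against 79.9, 93.0 and 95.1 CPM in A10, lower by at least 1859.6-fold, while FGFR1 rose 1.62-fold to 16.9 ± 1.73 CPM. MET, the receptor of hepatocyte growth factor, rose 2.30-fold, VEGFA 3.78-fold and PDGFB 18.5-fold to 91.7 ± 3.68 CPM. In the PI3K and AKT list 10 of 26 rose and 12 fell, median -0.12. PIK3R1, the main regulatory subunit, fell 6.52-fold and IRS1 6.08-fold, and the transcription factor gene FOXO3 rose 3.04-fold to 232 ± 3.82 CPM.

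Genes of DNA replication were lower in CA1 almost without exception. Of 25 S phase genes 24 fell and none rose, with a median of -2.28, and CDT1 alone was not called. MCM3, a subunit of the replicative helicase, had 20.7, 24.7 and 25.1 CPM in CA1, against 135, 143 and 138 CPM in A10, and PCNA, the sliding clamp, 67.1, 73.5 and 70.5 CPM in CA1, against 225, 223 and 222 CPM in A10. RRM2, a subunit of ribonucleotide reductase, fell 6.31-fold, UHRF1, which brings DNA methylation to new strands, 9.06-fold, and CLSPN (claspin), a checkpoint mediator, 17.8-fold. The transcription factor gene E2F1 had 4.69, 5.37 and 3.76 CPM in CA1, against 22.2, 19.3 and 25.7 CPM in A10. The groups did not overlap in any of these 6 genes, as in 78.9% of all tested genes. MCM3 had a log2 fold change of -2.55 ± 0.0764 (SE) and edgeR adjusted p of 3.36e-21.

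All 25 mitosis genes fell too, with a median of -1.26. MKI67, the Ki-67 proliferation antigen, had 82.3, 65.1 and 66.1 CPM in CA1, against 179.6, 219 and 186 CPM in A10. PLK1, a mitotic kinase, fell 2.06-fold, CDK1 1.58-fold and FOXM1, a transcription factor of mitotic genes, 4.57-fold. CENPF, a kinetochore protein gene, fell 4.15-fold. The largest fall among mitosis genes, -2.19 for FOXM1, was smaller than the S phase median.

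**Figure D3:**
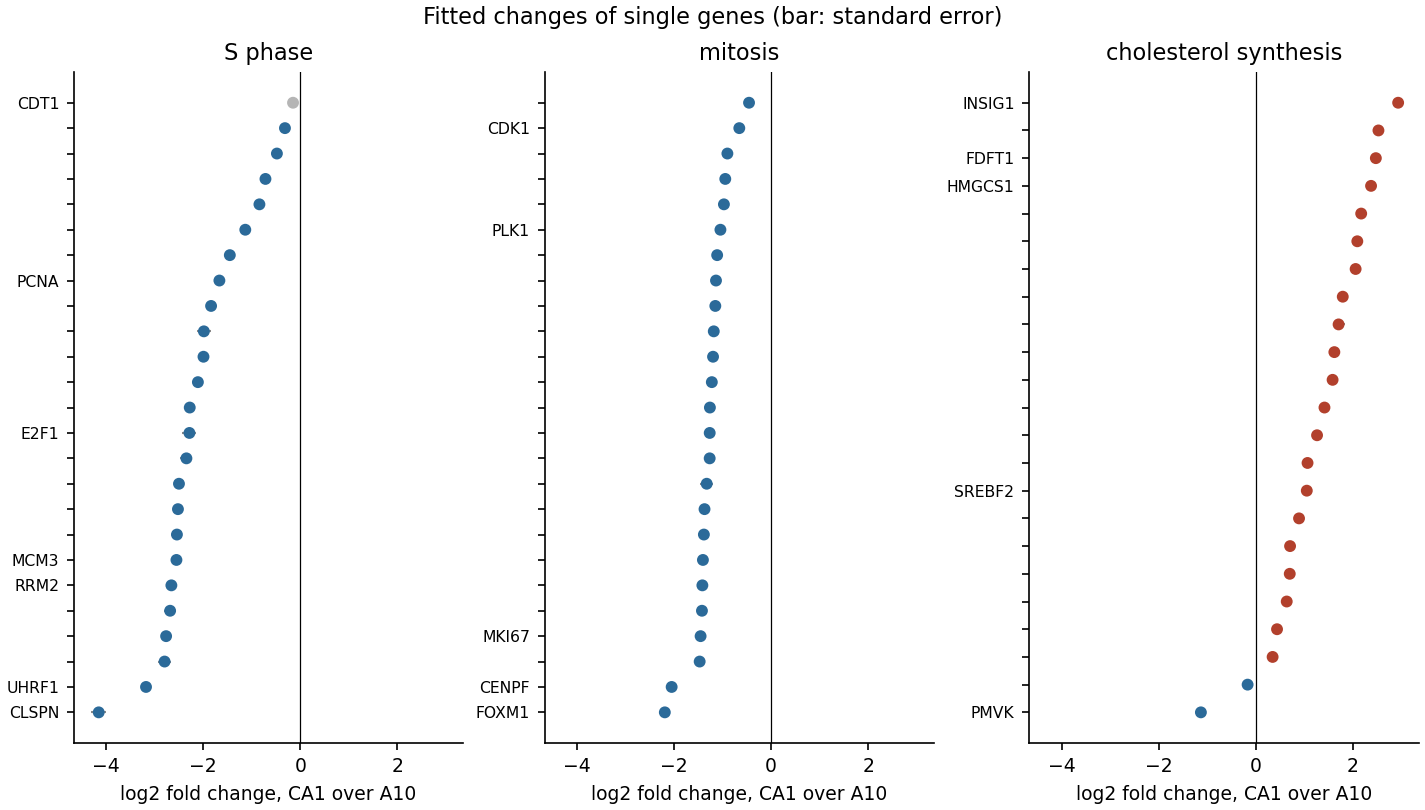
Fitted log2 fold change of CA1 over A10 with its standard error for each tested gene of the S phase (25), mitosis (25) and cholesterol synthesis (23) lists. All S phase genes but CDT1 and all mitosis genes are called lower, and 21 of 23 cholesterol genes are called higher. Only genes named in the text carry a label.

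Because the replication genes moved together, their promoters are shown for the helicase subunit gene MCM3 and for E2F1 itself. Both windows are RefSeq promoters on GRCh38.p14, minus strand, 250 bases before to 50 after the start, at chr6:52284693-52284992 for MCM3 and chr20:33686336-33686635 for E2F1. Capitals mark matches to the E2F motif TTTNNCGC or, on the other strand, GCGNNAAA, and neighbouring matches can overlap.
MCM3: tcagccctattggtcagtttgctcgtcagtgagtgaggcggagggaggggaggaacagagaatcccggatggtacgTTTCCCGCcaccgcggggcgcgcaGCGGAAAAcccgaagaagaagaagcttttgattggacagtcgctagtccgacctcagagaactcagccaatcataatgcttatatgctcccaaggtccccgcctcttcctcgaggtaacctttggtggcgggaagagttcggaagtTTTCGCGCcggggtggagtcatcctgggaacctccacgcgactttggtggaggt
E2F1: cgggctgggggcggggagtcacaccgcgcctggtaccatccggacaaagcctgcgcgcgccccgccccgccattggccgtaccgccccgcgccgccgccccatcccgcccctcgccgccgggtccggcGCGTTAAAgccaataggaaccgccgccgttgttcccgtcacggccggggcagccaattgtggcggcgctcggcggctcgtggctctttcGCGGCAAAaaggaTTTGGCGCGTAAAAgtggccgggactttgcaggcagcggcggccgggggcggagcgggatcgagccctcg
MCM3 held 3 matches and E2F1 4. The motif was found in 14 of 21 S phase promoters (66.7%), 3 of 19 mitosis promoters (15.8%) and 1121 of the 10713 promoters of all tested genes that had an entry (10.5%). A match describes the letters and is not a measured binding site.

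Cyclins and inhibitors of the cell cycle split by member. Of 16 tested genes 10 fell and 6 rose. CCND2 (cyclin D2) had 0.810, 0.660 and 0.898 CPM in CA1, against 87.7, 80.7 and 87.8 CPM in A10, a 108-fold fall, and CCND3 fell 9.94-fold. The E cyclins CCNE1 and CCNE2, which start S phase, fell 6.61-fold and 17.6-fold, and CDK2 2.52-fold. CDKN1A (p21) fell 1.86-fold to 214 ± 8.94 CPM, CDKN1B (p27) rose 1.53-fold and CDKN1C (p57) 3.71-fold. CDK6 rose 1.30-fold. CDKN2A and CDKN2B, the inhibitor genes of 9p21, had no count in either line.

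GDF15, a secreted stress cytokine (chromosome 19, 18386158 to 18389176), had 4761, 5056 and 4915 CPM in CA1, against 154, 179 and 181 CPM in A10, a 28.7-fold rise (edgeR adjusted p = 1.32e-28).

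Genes of cholesterol synthesis were higher in CA1 along nearly the whole pathway. Of 23 genes 21 rose and 2 fell, with a median of 1.42. HMGCS1, an early enzyme, had 1204, 1206 and 1170.3 CPM in CA1, against 238, 227 and 222 CPM in A10, and FDFT1, the first enzyme committed to sterols, 2059, 2047 and 2111 CPM in CA1, against 376, 366 and 373 CPM in A10. Every CA1 library lay above every A10 library for these enzymes, HMGCS1 having a log2 fold change of 2.38 ± 0.0536 (SE) and edgeR adjusted p of 5.56e-24. INSIG1, which holds back SREBP activation, rose 7.67-fold, and SREBF2, the transcription factor of the pathway, 2.08-fold. PMVK, which lies on 1q, fell 2.19-fold.

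Fatty acid genes rose in 14 of 19 tested cases and fell in 4, median 0.79. SCD, the stearoyl-CoA desaturase (chromosome 10, 100347233 to 100364826), had 12634, 12652 and 12365 CPM in CA1, against 1314, 1321 and 1257 CPM in A10, and gained more CPM than any other gene (log2 fold change of 3.27 ± 0.0501 (SE) and edgeR adjusted p of 1.22e-27). FASN (fatty acid synthase) rose 2.38-fold to 2589 ± 61.9 CPM, ACSS2, which makes acetyl-CoA from acetate, 12.8-fold and SREBF1 2.63-fold. The desaturases did not move as one. FADS2, which acts on polyunsaturated fatty acids, had 28.3, 27.9 and 27.9 CPM in CA1, against 226, 255 and 248 CPM in A10, and SCD5, a second stearoyl-CoA desaturase, fell 7.46-fold.

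Markers of fat cells beside these genes were read as a set of 8. PPARG, the nuclear receptor of fat cells, had 102, 93.6 and 102 CPM in CA1, against 5.26, 4.47 and 5.29 CPM in A10, and the lipid droplet gene PLIN4 67.7, 76.2 and 70.7 CPM in CA1, against 7.69, 9.81 and 8.88 CPM in A10. All 4 tested markers rose, median 3.67, and the summed level of the 8 was 175 to 178 CPM in CA1 libraries and 13.03 to 14.7 CPM in A10 libraries. The defining fat cell genes ADIPOQ, LPL and LEP had no counts in either line.

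Inflammatory and NF-kB target genes mostly fell, 23 of 28 tested genes being lower and 4 higher, with a median of -2.30. SAA1, an acute-phase gene, had 1.04, 1.01 and 0.684 CPM in CA1, against 1072, 1002 and 1229 CPM in A10, and CXCL1, a neutrophil chemokine, 9.72, 8.36 and 7.61 CPM in CA1, against 279.9, 265 and 301 CPM in A10. CSF3, the granulocyte colony-stimulating factor gene, had 0 CPM in every CA1 library, against 196, 229 and 222 CPM in A10, lower by at least 4502-fold. All 3 genes stood below 10 CPM in every CA1 library and far above it in every A10 library, SAA1 with a log2 fold change of -10.25 ± 0.116 (SE) and edgeR adjusted p of 6.34e-30. CXCL8, listed under its older symbol IL8, fell 4.57-fold to 25.2 ± 0.797 CPM, IL1A 3.73-fold, and the inhibitors of the pathway NFKBIA and TNFAIP3 5.10-fold and 5.03-fold. IL1B, the secreted interleukin-1, had 423, 403 and 410.5 CPM in CA1, against 115, 110.2 and 113 CPM in A10, and LCN2 (lipocalin 2) 182, 173 and 194 CPM in CA1, against 45.3, 46.2 and 51.7 CPM in A10. These were higher in every CA1 library, together with TNFAIP2, 3.65-fold, and NFKB2, 1.72-fold. SAA1 and SAA2 are near-identical, so reads can be shared between them.

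Interferon-stimulated genes fell in 19 of 28 tested cases and rose in 5, median -0.60. IFITM2 and IFITM3 encode membrane proteins that hinder virus entry. IFITM2 had 2.14, 0.396 and 1.497 CPM in CA1, against 272, 307 and 309 CPM in A10, and IFITM3 88.7, 89.7 and 89.6 CPM in CA1, against 612, 639.8 and 669 CPM in A10. IFIT2 and IFIT3 fell 6.29-fold and 6.04-fold, and IFITM2 and IFITM3, near-identical, can share reads. ISG20, an RNA exonuclease, rose 11.5-fold, BST2 (tetherin) 3.11-fold and IRF7 4.12-fold. Genes of antigen presentation on MHC class I changed little, with 4 of 17 higher and 8 lower and a median of -0.08. HLA-C fell 2.02-fold and B2M rose 1.18-fold, and reads of the HLA genes can be shared among alleles and copies.

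Metallothioneins, small proteins that bind zinc and copper, were all lower. All 5 tested genes fell, with a median of -5.40. MT2A (chromosome 16, 56608584 to 56609497) had 359.7, 324 and 434 CPM in CA1, against 5715, 5339 and 6948 CPM in A10, and MT1E 0.174, 0 and 0 CPM in CA1, against 637, 492 and 705 CPM in A10. The fall of MT2A had a log2 fold change of -4.01 ± 0.180 (SE) and edgeR adjusted p of 1.73e-05. MT1E had 3 counts in all of CA1, a CPM ratio of A10 over CA1 of 13071 (95% counting interval 4472 to 63382). MT1X had 17.7 ± 3.99 CPM in CA1 and 58.8 ± 9.19 CPM in A10, the smallest fall at 3.32-fold. Their sequences are similar, so reads can be shared.

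The promoter of MT2A is shown because metallothionein genes are known targets of the zinc sensor MTF1. It is the RefSeq window chr16:56608334-56608633, GRCh38.p14, plus strand, with matches to the MTF1 motifs TGCACNC and TGCGCNC, or GNGTGCA and GNGCGCA on the other strand, in capitals.
MT2A: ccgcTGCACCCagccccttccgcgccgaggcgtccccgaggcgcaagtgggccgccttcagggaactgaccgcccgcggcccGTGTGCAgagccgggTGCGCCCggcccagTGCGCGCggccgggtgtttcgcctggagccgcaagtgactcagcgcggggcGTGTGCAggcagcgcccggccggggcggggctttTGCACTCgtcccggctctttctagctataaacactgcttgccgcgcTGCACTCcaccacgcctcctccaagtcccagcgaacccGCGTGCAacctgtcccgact
It held 8 matches, and at least 1 match was found in 38.8% of the promoters of all tested genes.

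Stress and nutrient genes moved less uniformly. Among targets of NRF2, the regulator of the oxidative response, 14 of 21 rose and 5 fell, median 0.75. TKT, a transketolase of the pentose phosphate path, had 3262, 3471 and 3520.4 CPM in CA1, against 882, 1002 and 985 CPM in A10, and NQO1, a quinone reductase, rose 1.73-fold, but GCLC, which starts glutathione synthesis, fell 2.38-fold. AKR1C1 and AKR1C2 rose 2.29-fold and 3.40-fold and are close paralogs that can share reads.

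Of 24 ATF4 and amino acid genes 14 rose and 9 fell. ASNS (asparagine synthetase) and PHGDH, the first enzyme of serine synthesis, rose 2.43-fold and 2.67-fold. SLC7A5, a leucine transporter, had 733, 768 and 771 CPM in CA1, against 2502, 2832 and 2710.1 CPM in A10, and was among the 10 genes that lost the most CPM. ALDH1L2, a mitochondrial folate enzyme, had 0.119 ± 0.119 CPM in CA1 and 107 ± 2.02 CPM in A10, an 818-fold fall that was 1949-fold without CA1 replicate 3.

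In the glycolysis and hypoxia list 10 of 34 rose and 18 fell, median -0.31. HK2 (hexokinase 2) rose 6.69-fold and SLC2A1 (GLUT1) 2.28-fold. SLC2A3 (GLUT3) had 3 counts in CA1 and 13.1 ± 0.292 CPM in A10, PKM (pyruvate kinase) fell 1.85-fold, LDHA (lactate dehydrogenase A) 2.47-fold and CA12 (carbonic anhydrase 12) 13.9-fold. FTH1, the ferritin heavy chain that stores iron, had 3658, 3549.5 and 3640.4 CPM in CA1, against 9683, 9335 and 9818 CPM in A10 and lost the most CPM of any gene, although its processed copies can share its reads.

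Genes of metalloproteinases and plasminogen activation, a list that also holds protease inhibitors, did not rise as a group. Of 26 tested genes 9 rose and 14 fell, median -0.72. The gelatinase genes differed: MMP9 had no count in CA1 and 1.60 ± 0.337 CPM in A10, lower by at least 34.9-fold, and MMP2 was not called, at 25.4 ± 2.40 CPM in CA1 and 28.4 ± 3.27 CPM in A10. Without A10 replicate 1, MMP2 was called lower (edgeR adjusted p = 0.0251). MMP14, a membrane-bound collagenase, fell 1.77-fold, and MMP1, an interstitial collagenase, rose to 4.40 ± 0.596 CPM against 2 counts in A10, a ratio of 199.6 (95% counting interval 54.7 to 1656). PLAT, tissue plasminogen activator, had 799, 855 and 821 CPM in CA1, against 125, 136 and 142 CPM in A10, and SERPINE2, an inhibitor of it, 419, 379.8 and 400.2 CPM in CA1, against 43.6, 51.4 and 46.2 CPM in A10. SERPINB2 fell 200.3-fold, or 564-fold without CA1 replicate 3. PLAU (urokinase) rose 1.15-fold.

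Receptors and ligands of the TGF-beta family moved apart. Of 26 tested genes 13 rose and 8 fell, median 0.36. TGFBR2 fell 6.46-fold to 89.4 ± 4.46 CPM, TGFB1 6.04-fold and the coreceptor gene TGFBR3 46.2-fold, or 141-fold without CA1 replicate 3. INHBA, the activin A subunit, had 123, 132 and 122 CPM in CA1, against 4.67, 5.85 and 4.18 CPM in A10, and NOG (noggin), which binds bone morphogenetic proteins, 66.5, 70.2 and 64.5 CPM in CA1, against 0.981, 1.503 and 1.29 CPM in A10. SMAD3 rose 2.82-fold and BMP7 65.0-fold, or 114.5-fold without A10 replicate 2. Among YAP and TAZ genes 9 of 20 rose and 9 fell. WWTR1 (TAZ itself) had 422, 414 and 419 CPM in CA1, against 83.7, 80.3 and 76.8 CPM in A10, and IGFBP3 rose 18.5-fold, but CCN2 (CTGF), the standard readout, fell 2.24-fold.

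Of 27 tested WNT genes 11 rose and 11 fell. WNT7B had 225, 228 and 223 CPM in CA1, against 2.71, 2.92 and 3.18 CPM in A10, a 77.1-fold rise, and WNT5A 0 CPM in every CA1 library, against 20.96, 22.97 and 19.5 CPM in A10, lower by at least 445-fold. These ligands thus moved in opposite directions. DKK1, a WNT inhibitor, rose 4.42-fold and TCF7 18.8-fold. In the Notch list 10 of 16 rose and 4 fell, led by the receptor gene NOTCH3, with 203, 211 and 193 CPM in CA1, against 7.97, 11.9 and 8.95 CPM in A10, and the ligand gene JAG1, 2.35-fold. HOX genes fell in 13 of 22 tested cases and rose in 7, with HOXA5 down 3.88-fold and HOXC13 up 3.87-fold.

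Of 15 tested genes of cytosine deamination and DNA methylation 6 rose and 5 fell. APOBEC3G, a deaminase, had 61.9, 67.4 and 65.6 CPM in CA1, against 1.32, 0.752 and 1.74 CPM in A10, while APOBEC3B was not called, at 19.5 ± 0.580 CPM in CA1 and 20.9 ± 0.614 CPM in A10. DNMT1, which copies methylation at replication, fell 2.57-fold. Of 9 tested contractile genes of myoepithelium 2 rose and 6 fell. ACTA2 (smooth muscle actin) rose 2.71-fold, TAGLN (transgelin) fell to 0.855 ± 0.351 CPM in CA1, against 82.8 ± 3.44 CPM in A10, and MME (CD10) 43.9-fold. Among markers of other cell types, 2 of 5 leukocyte genes rose and 2 fell, with CD68 up 10.03-fold and CD14 down 3.31-fold, and the 8 markers summed to 107.5 to 111.2 CPM in CA1 libraries and 77.6 to 81.6 CPM in A10 libraries. Of 2 endothelial genes PECAM1 rose and KDR fell, and of 3 neural and melanocyte genes MITF and PMEL rose and TUBB3 fell. The 6 endothelial markers summed to 24.3 to 25.5 CPM in CA1 and 7.54 to 10.98 CPM in A10, and the 8 neural and melanocyte markers to 38.9 to 43.4 CPM in CA1 and 88.4 to 100.8 CPM in A10. CLDN5, SOX10 and TYR were at 0 in both lines, KDR in CA1 and S100B in A10.

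**Figure D4:**
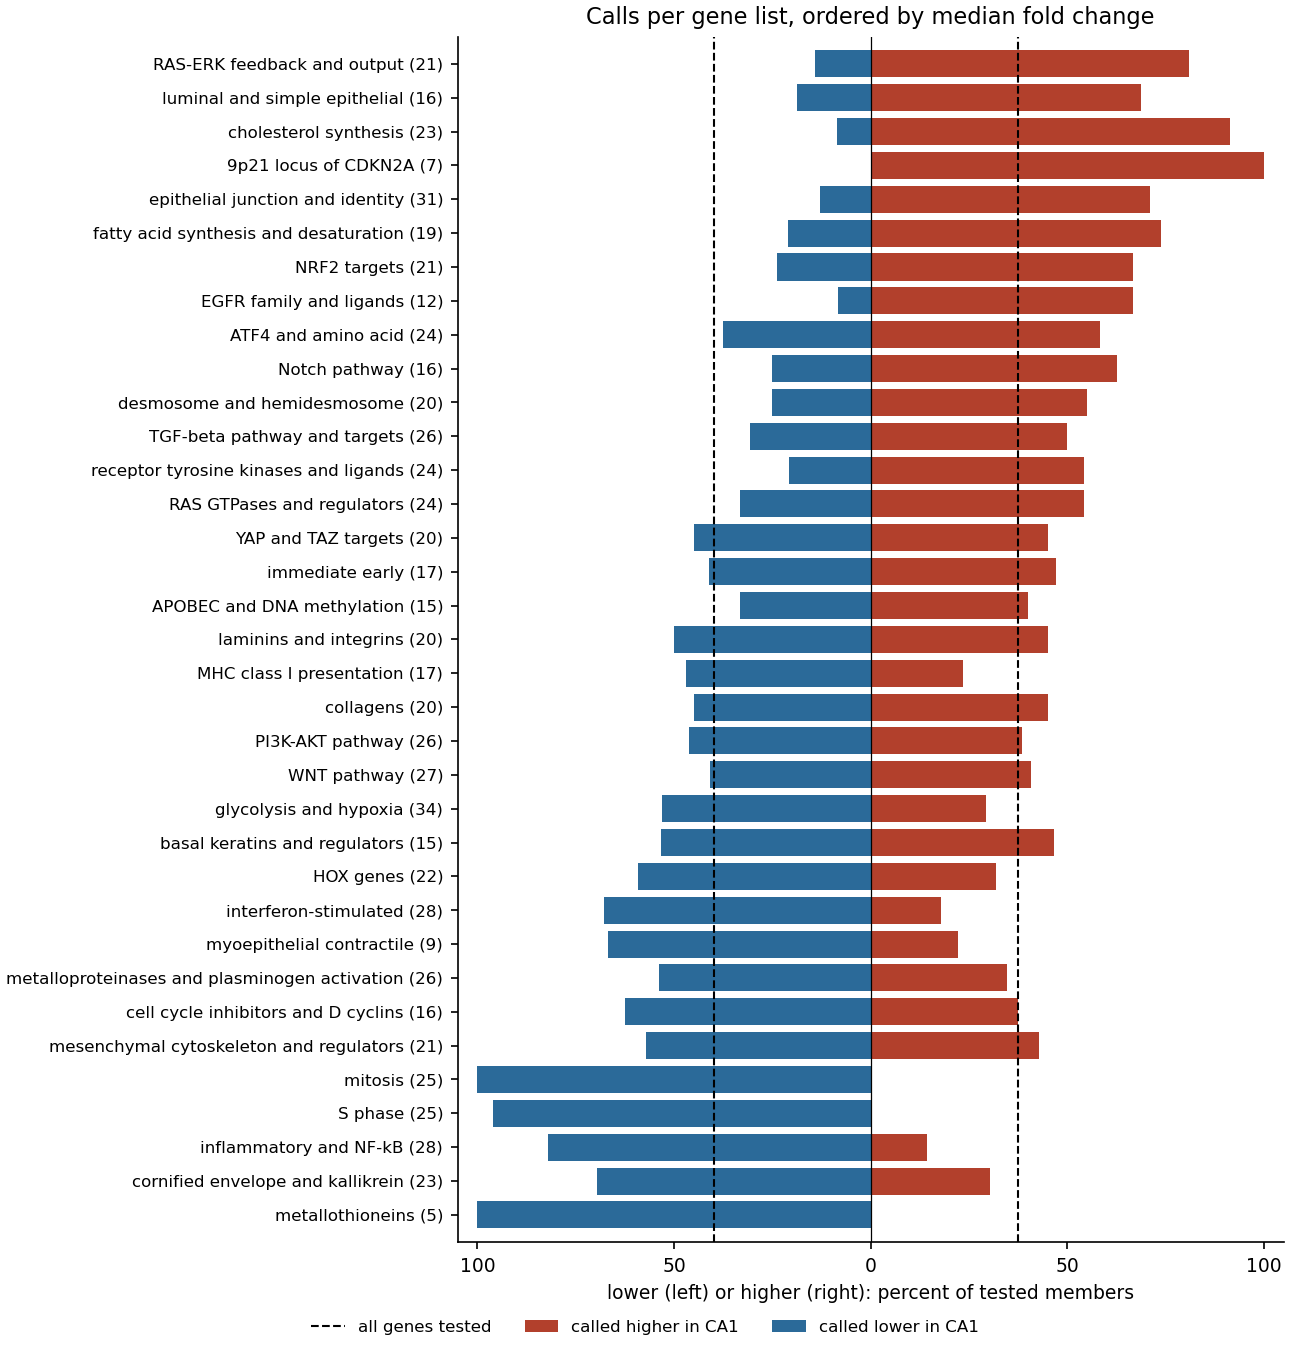
Percent of tested members called higher (right) and lower (left) in CA1 for 35 gene lists, ordered by median log2 fold change, with the number tested in brackets. Dashed lines mark all genes tested, 37.4% higher and 39.8% lower. RAS-ERK, luminal and cholesterol genes stand at the top, and NF-kB, cornified envelope and metallothionein genes at the bottom.

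Some genes were detected in only 1 of the 2 lines compared. With at most 3 counts over 3 libraries of one line and at least 5 CPM in the other, 20 genes were on in CA1 only and 80 in A10 only. CEACAM5, the carcinoembryonic antigen (chromosome 19, 41708626 to 41730519), had 259, 239 and 240.0 CPM in CA1, against 0 CPM in every A10 library, and LOXL4, a lysyl oxidase that cross-links matrix, 163, 174 and 175 CPM in CA1, against 0 CPM in every A10 library. They were at least 7321-fold and 5125-fold higher. PPP1R1B (DARPP-32), a phosphatase inhibitor, had 103, 115 and 112 CPM in CA1, against 0 CPM in every A10 library, and GJA1 (connexin 43), a gap junction protein, 20.8, 22.5 and 20.1 CPM in CA1, against 0 CPM in every A10 library. EPDR1, ATG9B and RNF212 were also at 0 in A10, with 17.98 ± 3.12, 17.7 ± 2.69 and 16.6 ± 2.26 CPM in CA1. LY75, an endocytic receptor, had 70.9, 63.0 and 67.0 CPM in CA1, against 0.0516, 0 and 0 CPM in A10, a CPM ratio of 2989.6 (95% counting interval 827 to 24694), and CDH19, a cadherin, 28.4, 30.3 and 31.6 CPM in CA1, against 0, 0.0418 and 0 CPM in A10, a ratio of 2716 (95% counting interval 487 to 107347). Also among the 15 largest rises, TCN1 (haptocorrin), a vitamin B12 carrier, had 501, 482 and 501 CPM in CA1, against 0.258, 0.125 and 0.740 CPM in A10, and CALB2 (calretinin) 317, 338 and 328 CPM in CA1, against 0.310, 0.125 and 0.518 CPM in A10. CHD5, a chromatin remodeller, had 23.5 ± 0.744 CPM in CA1 and 0.0278 ± 0.0482 CPM in A10.

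CPM gains and losses are absolute and favour abundant and long genes. The 10 genes with the most CPM gained were SCD, ITGB4, EEF1A1, KRT15, GDF15, KRT7, KRT8, ACTG1, HMGA1 and LAMB3. The 10 with the most lost were FTH1, MT2A, KRT5, KRT81, SLC7A5, KRT6A, FLNA, PKM and a pair of cytoplasmic rRNA rows. HMGA1, a chromatin protein gene, had 3717, 4334 and 3959 CPM in CA1, against 692, 749.9 and 749.7 CPM in A10, and KRT81, a hair-type keratin, 862, 1027 and 1077 CPM in CA1, against 3655, 4037 and 3910.1 CPM in A10. EEF1A1, a translation factor with many processed copies that can share its reads, rose 1.41-fold, and ACTG1, a cytoplasmic actin, 1.90-fold.

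On in A10 only, beside CSF3, FGFR3, S100A8, DCN, POSTN and MT1E above, were ALOX15B, a lipoxygenase, with 0 CPM in every CA1 library, against 117, 133 and 125 CPM in A10, and MYADM, a membrane protein gene, with 0 CPM in every CA1 library, against 104, 107 and 103 CPM in A10. They were lower by at least 2619-fold and 2209-fold. VSTM2L had 0 CPM in every CA1 library, against 67.9, 79.5 and 84.6 CPM in A10, PDPN (podoplanin), a surface glycoprotein, 0 CPM in every CA1 library, against 45.8, 47.5 and 48.5 CPM in A10, and SCARA3 0 CPM in every CA1 library, against 38.4, 36.6 and 35.9 CPM in A10. CADM3, PGBD5 and VNN1 complete the 15 largest falls and had no count in CA1, with 32.2 ± 4.56, 21.2 ± 1.04 and 18.3 ± 3.25 CPM in A10. Of the 80 genes, 48 had no count in any CA1 library, and of the 20 genes on in CA1 only, 15 had none in A10. A count of 0 over 3 libraries allows up to 0.0473 CPM in CA1 and 0.0334 CPM in A10, and these floors and the counting intervals cover counting error only. On in A10 only refers to the 2 lines compared. With all 12 libraries scaled together, ALOX15B had 212 CPM in NeoT and 37.6 CPM in T1, MYADM 94.8 and 54.3, and VSTM2L 57.1 and 268. MT1E had 502 CPM in NeoT and 140 CPM in T1, and DCN 632 and 0.447. Lower were CSF3, with 10.95 CPM in NeoT and 0.0527 CPM in T1, S100A8, 2.29 and 0.464, POSTN, 0.853 and 0.457, and FGFR3, 0.0630 and 0.

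Promoters of 4 such genes are shown because they differ in CpG content, the sequence that DNA methylation acts on. All are RefSeq windows on GRCh38.p14, with CpG in capitals. CEACAM5 (chr19:41708376-41708675, plus strand) and LOXL4 (chr10:98268145-98268444, minus strand) were at 0 in A10. FGFR3 (chr4:1793043-1793342, plus strand) was at 0 in CA1 and S100A8 (chr1:153391139-153391438, minus strand) had 1 count there.
CEACAM5: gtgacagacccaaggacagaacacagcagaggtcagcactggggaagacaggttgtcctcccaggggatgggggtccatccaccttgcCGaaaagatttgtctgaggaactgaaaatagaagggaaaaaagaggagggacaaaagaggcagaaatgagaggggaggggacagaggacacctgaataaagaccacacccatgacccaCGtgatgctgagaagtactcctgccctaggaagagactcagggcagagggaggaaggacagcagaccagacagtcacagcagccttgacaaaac
LOXL4: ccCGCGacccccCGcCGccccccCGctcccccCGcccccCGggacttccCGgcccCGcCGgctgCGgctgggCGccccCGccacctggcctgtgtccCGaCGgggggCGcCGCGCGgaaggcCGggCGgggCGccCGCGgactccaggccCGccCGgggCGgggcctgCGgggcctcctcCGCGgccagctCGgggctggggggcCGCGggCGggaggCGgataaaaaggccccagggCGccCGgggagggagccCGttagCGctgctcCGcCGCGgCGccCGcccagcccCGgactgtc
FGFR3: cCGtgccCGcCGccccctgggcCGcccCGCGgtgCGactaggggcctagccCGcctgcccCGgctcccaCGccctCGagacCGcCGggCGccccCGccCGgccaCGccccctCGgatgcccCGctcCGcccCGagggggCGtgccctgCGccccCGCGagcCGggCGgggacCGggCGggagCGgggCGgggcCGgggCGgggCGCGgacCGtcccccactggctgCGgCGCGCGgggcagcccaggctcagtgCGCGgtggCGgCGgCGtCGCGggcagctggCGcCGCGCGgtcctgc
S100A8: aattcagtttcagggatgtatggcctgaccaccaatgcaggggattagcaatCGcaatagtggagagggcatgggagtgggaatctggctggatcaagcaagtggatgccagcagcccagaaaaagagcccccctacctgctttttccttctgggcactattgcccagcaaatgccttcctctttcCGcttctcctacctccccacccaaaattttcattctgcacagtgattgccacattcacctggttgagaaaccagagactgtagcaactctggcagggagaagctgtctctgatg
The window of CEACAM5 held 2 CpG and that of S100A8 2, against 45 in LOXL4 and 51 in FGFR3. Counting a window as CpG-dense at a GC content of at least 50% and an observed over expected CpG ratio of at least 0.6, 6 of 15 genes on in CA1 only with an entry (40%), 32 of 53 on in A10 only (60.4%) and 8531 of the 10713 of all tested genes (79.6%) were dense. Methylation was not measured in these libraries.

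Changes also ran along chromosomes. Positions are those of RefSeq on GRCh38.p14, and windows of 10 Mb with at least 20 tested genes were summarised by their median log2 fold change, with no test. On the long arm of chromosome 1, all 10 windows from 140000001 on were negative, from -0.40 to -1.11, and the window at 220000001 held 53 genes called lower and 9 higher of 64. The 12 windows of its short arm ran from -0.19 to 0.19. On chromosome 3 all 9 windows from 100000001 on were positive, from 0.36 to 0.96, and the 5 before them ran from -0.10 to 0.19. The end of the short arm of chromosome 9 had the highest window, 1.14, with 24 of 31 genes higher and 4 lower, and windows of chromosome 9 at 30000001, 70000001 and 80000001 had 0.51, 0.83 and 0.62. On chromosome 8, the 4 windows at 90000001, 100000001, 120000001 and 140000001 had medians from -0.37 to -0.68. Chromosome 20 was lower as a whole, with a median of -0.38 over 353 genes, 203 called lower and 93 higher. A window of chromosome 17 at 10000001 had 0.77 but -0.10 when joined with its neighbour into 20 Mb. DNA copy number was not measured in these libraries.

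**Figure D5:**
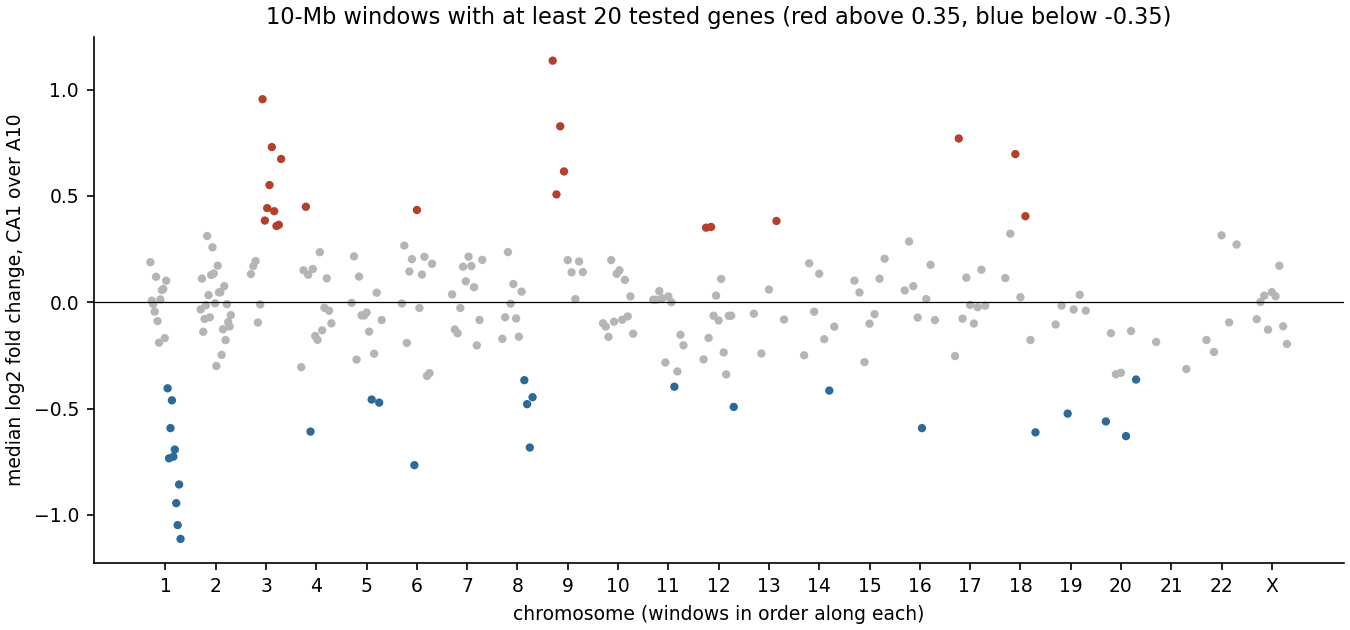
Median log2 fold change of CA1 over A10 in 241 windows of 10 Mb, in order along each chromosome (no test). Of 21 windows above 0.35 (red), 9 lie on chromosome 3 and 4 on chromosome 9, and of 27 below -0.35 (blue), 10 lie on chromosome 1, 4 on chromosome 8 and 3 on chromosome 20.

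At 9p21, the locus of CDKN2A, all 7 tested genes rose, median 1.07. MTAP, the gene beside CDKN2A, had 2.84, 4.22 and 3.21 CPM in CA1, against 0.103, 0.0418 and 0.148 CPM in A10, and FOCAD 45.4, 41.0 and 35.8 CPM in CA1, against 24.9, 27.2 and 20.2 CPM in A10. The rise of ELAVL2, 1.25-fold, was the smallest of the 7, and its call was lost without A10 replicate 1 or 3 and without CA1 replicate 1 or 3 (edgeR adjusted p = 0.0648 to 0.112). MIR31HG, IFNE, MTAP and DMRTA1 formed 1 of 14 stretches of at least 4 consecutive tested genes that were all called and at least 4-fold changed in one direction. This search and its thresholds were chosen after values were seen. The other rising stretch lay on 3q and held CP, TM4SF1, TM4SF1-AS1 and WWTR1, where TM4SF1, a tetraspanin-like surface gene, had 549.6, 561 and 554 CPM in CA1, against 98.4, 82.4 and 92.1 CPM in A10.

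Of the 12 falling stretches, 6 held genes of the lists above: SPRR1B to S100A7 on 1q (7 genes), the IFIT genes with LIPA on 10q (4), the SAA genes with MRGPRX3 and MRGPRX4 on 11p (6), MT2A to MT1F on 16q (4), KLK7 to KLK14 on 19q (6) and IL8 with CXCL1, CXCL2 and CXCL3 on 4q (4). IFI16, an innate DNA sensor in another stretch of 1q, fell 8.96-fold to 31.0 ± 0.514 CPM. A stretch of 5q held SLC26A2, a sulfate transporter, with 7.52, 8.05 and 6.93 CPM in CA1, against 111, 98.5 and 94.7 CPM in A10.

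The remaining 4 stretches were zinc finger genes of chromosome 19. The longest ran over 8 consecutive tested genes, ZNF433, ZNF20, ZNF136, ZNF44, ZNF563, ZNF799, ZNF443 and ZNF709 (chromosome 19, 12014715 to 12484816), 7 of which had no count in any CA1 library. ZNF136 had 0 CPM in every CA1 library, against 3.69, 2.46 and 2.92 CPM in A10, and ZNF44 0 CPM in every CA1 library, against 1.96, 2.34 and 1.55 CPM in A10. The levels in A10 were low, on average at most 3.03 CPM in this stretch, but present in each library. Over chromosome 19, 28 of 190 tested genes with a ZNF symbol had no count in CA1 (14.7%) and none had no count in A10. Outside that chromosome this was 5 of 235 ZNF genes (2.13%), and among all tested genes with a position 219 of 13290 (1.65%). At least 10-fold falls were found in 31 of the 190 (16.3%), in 6 of the 235 (2.55%) and in 5.1% of all. Not all fell: 51 of the 190 were called higher and 68 lower, with a median of -0.04. These sets were chosen after their values were seen and are described without a test. Zinc finger genes are similar in sequence, so reads can be shared.

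On Xq28, FLNA and EMD are neighbours. FLNA (filamin A; chromosome X, 154348531 to 154374634), an actin cross-linker, had 47.7, 51.1 and 45.7 CPM in CA1, against 1221, 1511 and 1378 CPM in A10, and was among the 10 genes that lost the most CPM. EMD (emerin; chromosome X, 154379295 to 154381523), a protein of the inner nuclear membrane, had 0, 0.132 and 0 CPM in CA1, against 50.6, 52.3 and 60.5 CPM in A10. Its 3 counts in CA1 gave a CPM ratio of A10 over CA1 of 1141 (95% counting interval 390.3 to 5537). MPP1, a scaffold gene of the same band, fell 12.8-fold. The 10-Mb window of chromosome X from 150000001, which holds FLNA and EMD, had a median log2 fold change of only -0.20. Of its 57 tested genes, 19 were called higher and 26 lower. With all 12 libraries scaled together, EMD had 52.2 ± 3.42 CPM in T1 and 82.8 ± 9.15 CPM in NeoT, and FLNA 1174 ± 43.3 CPM in T1 and 1849 ± 58.3 CPM in NeoT. These genes were singled out after their values were seen.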

How the data were processed

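The authors deposited one table of estimated counts per gene for 12 libraries, a merge of Salmon output by its file name. The genome build GRCh38 and the package limma appear in the submitters' processing notes with no stated use, and the Salmon version and annotation are not given in the sources used here. The table held 29744 rows, 11142 of them at 0 in the 6 libraries used, and 10.4% of its values were not whole. They were rounded, the largest change being 0.5.

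Genes passing filterByExpr were scaled by TMM and tested with edgeR 4.0.16 (R 4.3.3) by quasi-likelihood F tests with Benjamini-Hochberg adjustment over all 13762 genes. A gene was called at an adjusted p under 0.05. Fold changes at 0 or a few counts were replaced by a bound from 3 counts over a line, or by a ratio of summed counts with an exact 95% interval. The fit was tested on simulated data for the comparison of CA1 with A10 (13193 genes): 85% of genes changed 2-fold and 100% of those changed 4-fold were recovered. Both lines were drawn there from A10 means, with 200 genes changed, in equal numbers up and down. In the data 77.2% of genes were called, so the simulation does not show recovery or scaling under changes that broad. Alternatives used DESeq2 1.42.0, limma 3.58.1, other scalings and filters, glmTreat and left-out libraries.

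Named genes are HRAS, the 15 largest rises and falls with protein-coding symbols and at least 10 CPM, the 10 genes that gained or lost the most CPM, key and up to 5 strongly changed members of each list, and the 10 most abundant genes on in one line only. Other list members were chosen after their values were seen, as were the neighbour, zinc finger and Xq28 observations. Members and lists were chosen with earlier results of these data known. Positions and promoters came from RefSeq (GRCh38.p14) for 23168 rows matched by symbol and 1786 by synonym, and 4790 were unmatched. The files name genes by older symbols in places. Some genes of these lists are not reported here.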

Additional observations from a re-analysis of the deposited data

Results flagged for a closer look

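Of the 10 most abundant genes on in CA1 only, 2 averaged at least 5 CPM in T1 or NeoT, whose libraries the comparison did not use. Below that level, CEACAM5, PPP1R1B and C6orf223 had 153, 208 and 130 counts in T1, on average 1.82, 2.43 and 1.53 CPM. LY75 averaged 109.8 CPM in T1 and 59.47 CPM in NeoT, with 2 counts in A10, all 12 libraries being scaled together. GRHL2 averaged 59.03 CPM in T1, with no count in NeoT or A10. LOXL4, also at 0 in A10, had no count in T1 or NeoT.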

How the results depend on the processing

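The 10623 calls, 5151 higher and 5472 lower in CA1, became 3724, 1744 and 1980 when tested against a 2-fold change with glmTreat. Every other scaling, filter or tool run kept these counts within 1.5 times. Leaving out 1 library at a time gave 10246 to 10539 calls, 4961 to 5146 higher and 5285 to 5425 lower, of which 2277 to 2363 were at least 2-fold higher and 2518 to 2605 at least 2-fold lower. With the replicate block 10585 genes were called, 10488 of them shared. The replicate numbers are not stated to pair samples. Same-numbered libraries deviated together only weakly (r = 0.0395, 0.027 and 0.0821, each the highest for its number), and whether they share a batch was not tested.

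In windows of 20 Mb the medians were 0.7126 for chromosome 3 from 100000001, 0.8564 for chromosome 9 from 70000001, and on chromosome 1 -0.8321 from 210000001, -0.9787 from 220000001 and -0.9787 from 230000001. The window of chromosome 17 from 10000001 changed sign to -0.0954 when joined with the 10 Mb before it. Genes on in CA1 only numbered 39 with at most 10 counts in A10, and genes on in A10 only 46 with at least 10 CPM.

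The rule for named genes picked 293 genes. Of their 4979 values under 17 settings, 4904 kept direction and side of the threshold, 74 lost their call, 1 gained one and none reversed. Outside glmTreat 23 lost it, all of CDH1, ELAVL2, MX1 and RNA28S5. Genes named in the text outside that rule, such as MSN, are not in these counts. MX1, with an edgeR adjusted p up to 0.189 without CA1 replicate 3, was at 0.0717 with the replicate block. The leukocyte list median was -0.22 with at least 1 CPM in 3 libraries, against 0.52. Low counts limit genes near 0 and shared reads limit similar copies.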
